A study of Mus musculus with 48 samples.

Results

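The collagen chain genes of the mouse thoracic aorta were examined by collagen class. They were chosen by symbol: every gene in the table whose name is Col, a number, the letter a and a number was taken, which gave 44 of 18782 genes. The rule reads symbols and no measured value, but it was set with earlier results of these data known. The libraries were made from the thoracic aorta of 48 wild-type C57BL/6J mice, with 1 library per mouse. P-values of single genes set group differences against the spread between mice, which the main fit estimated over all 6 groups. The paper reports multiple cages per group, and the labels do not give the cage of a mouse, so a cage effect was not tested. Male and female controls (MaCon, n = 10; FeCon, n = 10) drank plain water. The other mice received 0.4% BAPN (β-aminopropionitrile) in the water they drank, starting at 3 weeks of age and lasting 28 days, and were placed at the end into a group without a detectable lesion (MaNonAD, n = 4; FeNonAD, n = 8) or with aortic dissection or aneurysm (MaAAD, n = 7; FeAAD, n = 9). All groups share the strain and the age, and no group carries an engineered allele. The treated groups hold survivors only: mice that died of rupture before the end of treatment are in none of them, and the division into NonAD and AAD was made after treatment and not by random assignment.

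Collagens are trimers of alpha chains, each chain from its own gene, that are assembled in the cell, secreted and built into the matrix. Fibrillar collagens, chiefly types I and III in arteries, form the tension-bearing fibrils of the media and adventitia, with type V inside them and FACIT collagens (fibril-associated collagens with interrupted triple helices) on their surface. Type IV forms the sheet of basement membranes, types VIII and X form hexagonal lattices, type VI forms beaded filaments around cells, and the multiplexins XV and XVIII lie in basement membrane zones. BAPN blocks lysyl oxidases, the enzymes that begin the cross-linking of collagen and elastin, so it acts on the protein after secretion, while the values here are of RNA.

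The libraries held 13548003 to 17281262 counts, with a median of 15681333.5, and Ddx3y, a Y-linked gene, matched the labelled sex in all 48. Of 14431 genes tested, 40 were collagens. The other 4, Col6a4, Col17a1, Col25a1 and Col26a1, reached at most 7, 12, 6 and 4 counts in any library and were not tested. Summed markers of smooth muscle ranged from 27852 to 60211 CPM (counts scaled to a common library size) in MaCon and 11833 to 29449 in MaAAD, and from 30532 to 52200.4 in FeCon and 13943 to 31893 in FeAAD, and all 8 genes of that list fell in both sexes by the test used for the collagens. All 7 macrophage markers rose in both sexes, from a summed 161 to 429 CPM in MaCon to 630.5 to 2978 in MaAAD and from 189 to 451 in FeCon to 470.2 to 4767 in FeAAD. Of all 14431 genes, 18.9% were higher and 16.1% lower in MaAAD than in MaCon, and 23.8% were higher and 20.6% lower in FeAAD than in FeCon. Of 8 fibroblast markers, 2 were higher and 2 lower in MaAAD, and 1 was higher and 4 lower in FeAAD. Endothelial markers had 3 of 7 higher and 0 lower in MaAAD and 2 higher and 1 lower in FeAAD, and Schwann cell markers 1 of 7 higher in MaAAD and 1 lower in FeAAD. Fat, heart muscle and skeletal muscle markers had no higher gene in either sex and 0, 1 and 0 lower in MaAAD and 1, 4 and 2 lower in FeAAD, while 1 and 3 of 8 thymus and lymphocyte markers were higher. Every collagen difference between AAD and control aortas below stands beside the shifts of the smooth muscle and macrophage markers, whose part in it was not tested. In bulk tissue, fewer cells of a type and less RNA per cell cannot be told apart.

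Collagen transcripts took a larger mean share of the RNA in all treated groups than in the controls, and most of the added share was fibrillar. The 44 genes together held 2.59 ± 0.246% of all counts in MaCon (mean ± SD, as in all following shares), 3.13 ± 0.345% in MaNonAD and 4.03 ± 0.707% in MaAAD. In females they held 2.41 ± 0.221% in FeCon, 3.25 ± 0.571% in FeNonAD and 3.90 ± 0.798% in FeAAD. The 4 MaNonAD libraries gave 3.42, 2.63, 3.22 and 3.24%, and the highest MaCon library, at 3.05%, lay below every MaAAD library, the lowest of which held 3.34%. In females the highest FeCon library held 2.93% and the lowest FeAAD library 2.91%, so those ranges overlapped slightly.

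The 11 fibrillar genes accounted for 1.42 ± 0.147% of the library in male controls, 1.83 ± 0.297% in MaNonAD and 2.81 ± 0.576% in MaAAD. In female controls they held 1.25 ± 0.145%, in FeNonAD 1.92 ± 0.524% and in FeAAD 2.68 ± 0.683%. As a part of all collagen counts they went from 55.0 ± 1.86% to 69.6 ± 5.45% in males and from 51.9 ± 3.14% to 68.4 ± 6.78% in females. The basement membrane network genes stayed between 0.415% and 0.471% of the library as group means, and their part of the collagen counts was 16.0% in MaCon, 11.0% in MaAAD, 19.0% in FeCon and 11.4% in FeAAD. Beaded filament genes held 0.255% to 0.315% of the library and multiplexins 0.372% to 0.470% as group means. The hexagonal network genes held far smaller shares: 0.00165% of the library in MaCon, 0.0245% in MaAAD, 0.00209% in FeCon and 0.0356% in FeAAD. These shares are descriptions and were not tested.

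**Figure D1:**
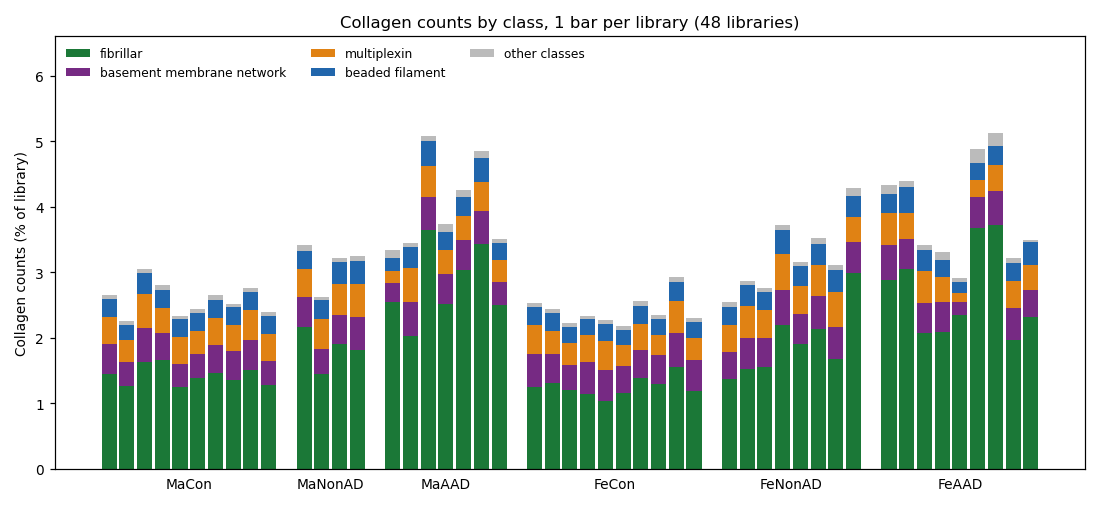
Percent of each library's counts (y axis) held by collagen genes in the 48 libraries (x axis, by group), stacked by class. The fibrillar class is the largest part of the bars on average and the part that grows most, from means of 1.42% in MaCon and 1.25% in FeCon to 2.81% in MaAAD and 2.68% in FeAAD, while the basement membrane part keeps its height.

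Compared per kilobase of transcript, Col3a1 and Col1a2 stood highest over all libraries, at 1183 and 1169 CPM per kb, followed by Col1a1 at 749.9 and Col18a1 at 537. The leading basement membrane chains, Col4a1 and Col4a2, were at 288 and 226 CPM per kb, next to the beaded filament chains Col6a1 at 262 and Col6a2 at 233. Col15a1 stood at 210.3, Col5a2 at 141 and Col5a1 at 119 CPM per kb. The genes with the largest fold changes lay far lower on this scale: Col8a1 averaged 20.1, Col10a1 3.85, Col2a1 2.48 and Col11a1 0.933 CPM per kb. The abundant chains therefore set the class shares, while the rare chains set the largest fold changes. The 44 genes lie on 15 chromosomes in the GENCODE M21 annotation, with Col3a1, Col5a2, Col6a3 and Col19a1 on chromosome 1, Col1a2 on chromosome 6, Col1a1 on chromosome 11, and Col6a1, Col6a2, Col10a1 and Col18a1 on chromosome 10.

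In aortas with dissection or aneurysm, more collagen genes were higher than lower than in controls of the same sex. A gene counts as higher or lower here when its Benjamini-Hochberg adjusted p in edgeR's quasi-likelihood test over all 14431 genes was under 0.05, and as a differentially expressed gene (DEG) when it also changed by at least 1 on the log2 scale. In MaAAD versus MaCon, 15 of 40 collagens were higher, against 18.9% of all genes tested, and 4 were lower, against 16.1%. Of these, 11 were higher DEGs (9.18% of all genes) and 2 lower DEGs (2.18%). In FeAAD versus FeCon, 18 of 40 were higher, against 23.8% of all genes, and 4 were lower, against 20.6%, with 11 higher DEGs (9.94% of all genes) and 2 lower DEGs (2.78%). The 2 lower DEGs were Col19a1 and Col22a1 in both sexes. The median log2 fold change over the 40 collagens was 0.26 in males and 0.38 in females, beside -0.03 and 0.0013 over all genes tested.

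The libraries of both groups lay fully apart, all AAD above all control, for 7 collagens in males (6.14% of all genes): Col1a1, Col1a2, Col3a1, Col5a2, Col8a1, Col11a1 and Col12a1. In females this held for 5 (3.63% of all genes): Col1a1, Col3a1, Col5a2, Col6a3 and Col8a1. No collagen lay fully apart in the lower direction in either sex, against 2.77% of all genes in males and 1.25% in females.

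Among classes with more than 1 gene tested, the fibrillar and hexagonal network classes had the largest shares of higher genes in both sexes, beside 18.9% of all genes in MaAAD and 23.8% in FeAAD. Of 11 fibrillar genes, 8 rose and 1 fell in MaAAD, with a median log2 fold change of 1.00, and 9 rose and 0 fell in FeAAD, with a median of 0.96. All 3 hexagonal network genes rose in both sexes, with medians of 4.11 and 4.34. Of the 9 FACIT genes, 3 rose and 2 fell in MaAAD and 4 rose and 3 fell in FeAAD. Of all genes, 16.1% were lower in MaAAD and 20.6% in FeAAD, so these few falls are near the background. Of the 5 beaded filament genes tested, 1 rose in each sex, which is near the background. None of the 6 basement membrane network genes passed the test in either sex, where edgeR gave an unadjusted p under 0.05 for 1 in males and 0 in females and DESeq2 also called 0.

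**Figure D2:**
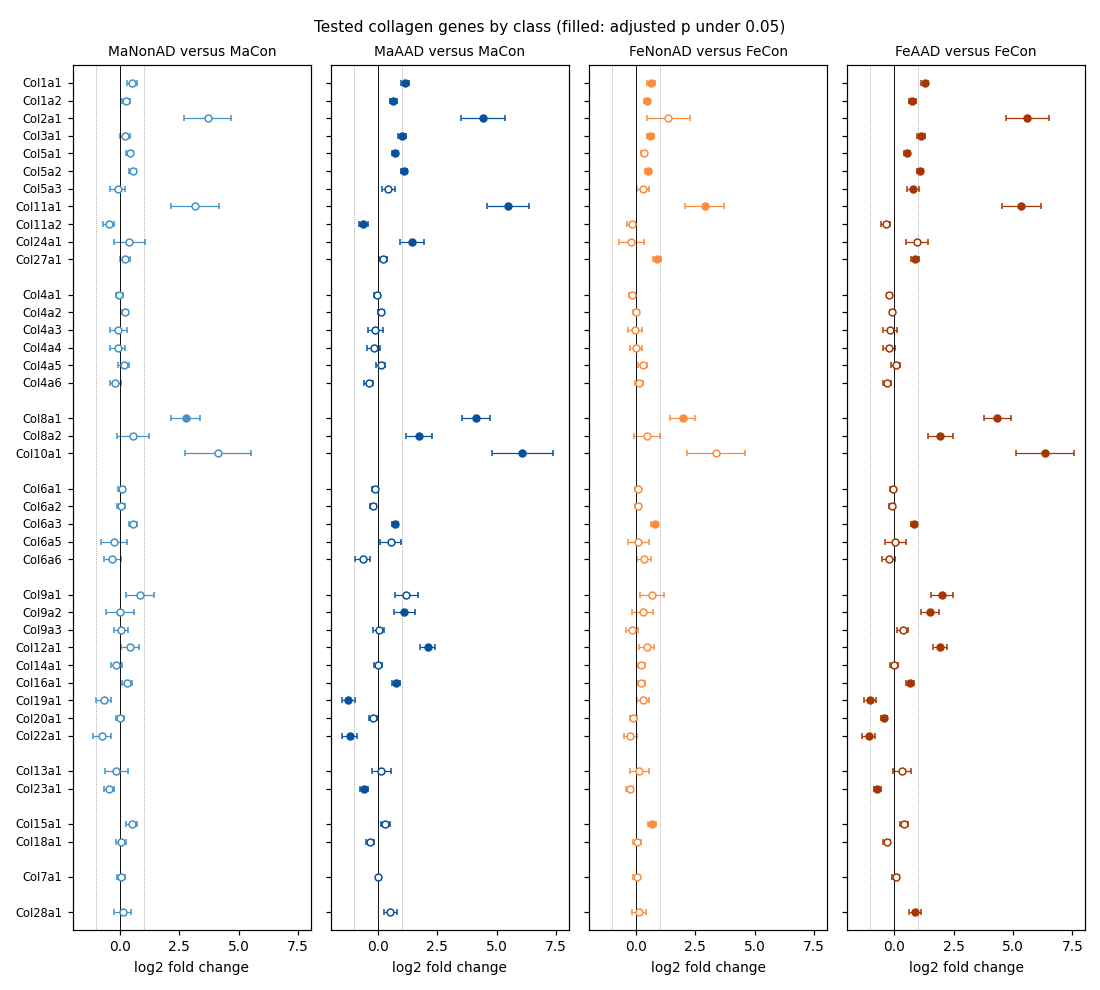
Log2 fold change ± approximate standard error (x axis) of the 40 tested collagens, ordered by class (y axis), in 4 comparisons of BAPN-treated groups with controls of the same sex; filled points have an adjusted p under 0.05 and dotted lines mark 1 and -1. All 3 hexagonal network genes and 10 of 11 fibrillar genes, all but Col11a2, lie to the right in both AAD panels, up to 6.36 for Col10a1 in FeAAD, and basement membrane genes lie near 0.

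Among the genes of the main fibril, type I and type III chains rose in both sexes. Col1a1, the chain present in 2 copies in the usual type I trimer, ranged from 2388 to 3498 (median 3342) CPM in MaCon and from 4162 to 10563 (median 6634) in MaAAD. The MaNonAD libraries gave 4945, 3819, 4815 and 4079.5 CPM. In females Col1a1 ranged from 1998 to 3853 (median 2378) CPM in FeCon, from 2753 to 6805 (median 3892) in FeNonAD and from 4311 to 9605 (median 6357) in FeAAD. Every AAD library of either sex stood above every control of its sex, and all 4 MaNonAD libraries stood above the highest MaCon library. The log2 fold change was 1.14 ± 0.17 in MaAAD (adjusted p = 9.63e-07; all errors of fold changes are approximate standard errors), 1.28 ± 0.16 in FeAAD (adjusted p = 2.53e-08) and 0.64 ± 0.17 in FeNonAD versus FeCon (adjusted p = 0.00773). In MaNonAD versus MaCon it was 0.51 ± 0.20 and did not pass (adjusted p = 0.276), although it passed in a fit of these groups alone.

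Col1a2, the other type I chain, ranged from 4074 to 5744 (median 5082) CPM in MaCon and from 6184 to 10405 (median 8062) in MaAAD, and from 3878 to 6144 (median 4286) in FeCon and from 5659.6 to 11329.6 (median 6842) in FeAAD. The MaNonAD libraries gave 7054, 5032, 6108 and 6465 CPM. It separated MaAAD from MaCon, while in females the ranges overlapped. Its log2 fold change was 0.65 ± 0.14 in males (adjusted p = 1.55e-04) and 0.77 ± 0.13 in females (adjusted p = 3.77e-06), so it rose by less than the DEG limit. In FeNonAD Col1a2 ranged from 4739 to 9199 (median 5922) CPM and was higher than in FeCon by 0.46 ± 0.13 (adjusted p = 0.0139), a call that was lost without FeNonAD library 8.

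Col3a1, whose product forms type III homotrimers, ranged from 3913 to 5842 (median 4647) CPM in MaCon and from 6763 to 12179.7 (median 9639.8) in MaAAD. In females it ranged from 3116 to 5668 (median 3973) CPM in FeCon, from 4061 to 11459.9 (median 6046) in FeNonAD and from 6329.9 to 13545 (median 9221) in FeAAD. The AAD libraries lay above all controls in both sexes, and the MaNonAD libraries, at 6218, 4269.9, 6104 and 5646 CPM, overlapped with MaCon. The log2 fold change was 1.00 ± 0.16 in MaAAD (adjusted p = 3.54e-06), 1.14 ± 0.15 in FeAAD (adjusted p = 8.92e-08) and 0.61 ± 0.16 in FeNonAD (adjusted p = 0.00745). Together Col1a1, Col1a2 and Col3a1 held 1.28 ± 0.131% of the counts in MaCon and 2.53 ± 0.529% in MaAAD, and 1.10 ± 0.143% in FeCon and 2.40 ± 0.635% in FeAAD.

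The promoters of Col1a2 and Col3a1 are shown because both are major fibril genes that rose in both sexes. Each line is the 150 bases before the RefSeq transcription start, read on the gene's strand, with capitals marking CCAAT or TATAAA where present (GRCm38.p6; Col1a2 at chr6:4505468-4505617, plus strand; Col3a1 at chr1:45311388-45311537, plus strand).
Col1a2: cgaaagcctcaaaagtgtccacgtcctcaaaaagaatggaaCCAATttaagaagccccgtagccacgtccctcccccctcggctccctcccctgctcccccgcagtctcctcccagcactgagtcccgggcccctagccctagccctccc
Col3a1: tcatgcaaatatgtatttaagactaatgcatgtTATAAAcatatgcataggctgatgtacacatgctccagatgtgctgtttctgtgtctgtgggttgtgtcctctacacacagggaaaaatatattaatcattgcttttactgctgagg
The CCAAT of Col1a2 starts 109 bases before the start site, and the TATAAA of Col3a1 starts 117 bases before it. RefSeq promoters were matched for 35 of the 44 members. In windows of 300 bases around the start, searched on both strands, TATAAA stood in 5 of the 35 and in 13.62% of 32851 mouse promoters, CCAAT in 13 and 37.41%, GGGCGG in 22 and 35.66%, and TGANTCA in 1 and 7.808%. These matches are letters in a window and not measured binding sites.

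The type V chains, which are embedded in type I fibrils and limit their diameter, moved unequally. Col5a2 ranged from 479 to 838 (median 615) CPM in MaCon and from 908 to 1661 (median 1382) in MaAAD, with 1077, 707, 898 and 969 in the MaNonAD libraries. Among female mice it ranged from 511 to 823 (median 626) CPM in FeCon, from 674 to 1129.6 (median 901) in FeNonAD and from 919 to 1712 (median 1491) in FeAAD. AAD and control libraries did not overlap in either sex. Col5a2 was higher by 1.10 ± 0.13 on the log2 scale in MaAAD (adjusted p = 9.16e-09), by 1.09 ± 0.12 in FeAAD (adjusted p = 1.06e-09) and by 0.51 ± 0.12 in FeNonAD (adjusted p = 0.00382). Col5a1, its partner in the trimer, ranged from 648 to 964 (median 760.1) CPM in MaCon, from 804 to 1715 (median 1148) in MaAAD, from 704 to 1064 (median 806) in FeCon and from 832 to 1494 (median 1148) in FeAAD, with overlap in both sexes. It was higher by 0.71 ± 0.12 in MaAAD (adjusted p = 8.43e-06) and by 0.55 ± 0.11 in FeAAD (adjusted p = 1.17e-04). Col5a3 was higher in FeAAD, by 0.79 ± 0.25 (adjusted p = 0.00968), and its 0.44 ± 0.27 in MaAAD did not pass (adjusted p = 0.208).

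Col27a1, a minor fibrillar chain best known from cartilage, was the collagen with the lowest p for a sex difference in the AAD response. It ranged from 31.7 to 76.1 (median 48.0) CPM in MaCon and from 35.4 to 72.0 (median 60.0) in MaAAD, and from 19.8 to 44.5 (median 34.9) in FeCon, from 45.7 to 82.4 (median 63.1) in FeNonAD and from 34.9 to 79.4 (median 63.8) in FeAAD. The FeNonAD libraries all stood above the FeCon range, and the male groups overlapped. The log2 fold change was 0.87 ± 0.16 in FeAAD (adjusted p = 1.82e-05), 0.89 ± 0.16 in FeNonAD (adjusted p = 2.59e-04) and 0.20 ± 0.17 in MaAAD (adjusted p = 0.371). The male response minus the female response was -0.67 ± 0.23 for AAD, with an unadjusted p of 0.00634 and an adjusted p of 0.129 in edgeR, and -0.68 ± 0.27 for NonAD (adjusted p = 0.255), so neither difference between the sexes passed. Among controls, Col27a1 was higher in males by 0.49 ± 0.16 (adjusted p = 0.028), the only collagen called between MaCon and FeCon in the fit of all groups (a fit of the control groups alone also called Col19a1 higher in males), where 6.38% of all genes were higher and 7.9% lower in males. That call was lost without FeCon library 10, which had the lowest Col27a1 of all libraries, 19.8 CPM.

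**Figure D3:**
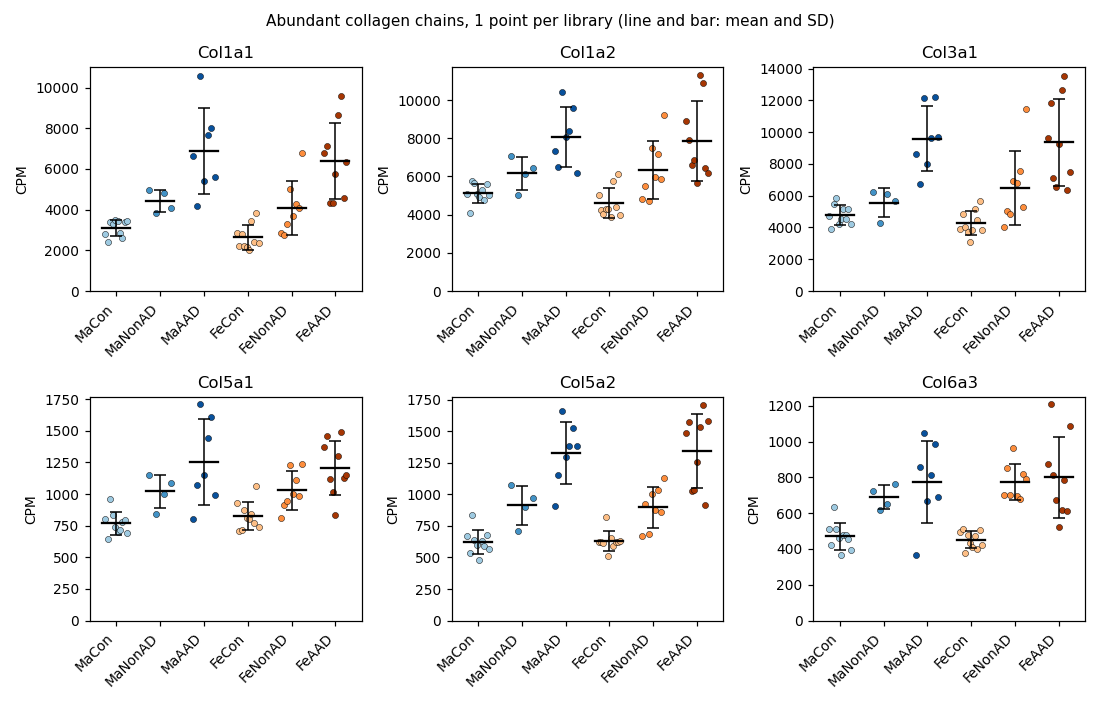
CPM (y axis, linear from 0) of Col1a1, Col1a2, Col3a1, Col5a1, Col5a2 and Col6a3 in each library (points) of the 6 groups (x axis), with the mean and SD of each group. The AAD points of Col1a1, Col3a1 and Col5a2 lie above all control points of the same sex, and the NonAD means lie between the control and AAD means in both sexes.

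Col2a1 and Col11a1, fibrillar genes of cartilage, were near the detection limit in controls and rose by the largest factors of the fibrillar class in both AAD groups. Col2a1, the main fibril chain of cartilage, ranged from 0.196 to 2.04 (median 0.408) CPM in MaCon and from 1.18 to 55.4 (median 5.83) in MaAAD. The MaNonAD libraries gave 28.2, 3.57, 5.26 and 2.40 CPM. In females it ranged from 0.380 to 2.56 (median 0.621) CPM in FeCon, from 0.310 to 10.0 (median 1.44) in FeNonAD and from 0.296 to 207 (median 12.5) in FeAAD. The rise was uneven: 5 of 7 MaAAD and 5 of 9 FeAAD libraries stood above all 20 controls of both sexes, and so did 3 of 4 MaNonAD and 1 of 8 FeNonAD libraries. The log2 fold change was 4.42 ± 0.91 in MaAAD (adjusted p = 1.29e-04) and 5.61 ± 0.90 in FeAAD (adjusted p = 1.94e-06). In MaNonAD it was 3.71 ± 0.99 (adjusted p = 0.0632) and in FeNonAD 1.36 ± 0.91 (adjusted p = 0.327), and neither passed.

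Col11a1, a chain of type XI collagen, which nucleates cartilage fibrils much as type V does in other tissues, ranged from 0.0641 to 0.668 (median 0.266) CPM in MaCon and from 3.41 to 25.0 (median 10.1) in MaAAD. In the female groups it ran from 0.277 to 0.787 (median 0.506) CPM in FeCon, from 0.244 to 26.9 (median 0.609) in FeNonAD and from 0.619 to 92.0 (median 9.59) in FeAAD, and the MaNonAD libraries gave 8.32, 0.127, 1.31 and 0.802. All 7 MaAAD and 8 of 9 FeAAD libraries lay above all 20 controls. Col11a1 was higher by 5.46 ± 0.89 on the log2 scale in MaAAD (adjusted p = 3.72e-06) and by 5.34 ± 0.82 in FeAAD (adjusted p = 1.03e-06). In FeNonAD it was higher by 2.90 ± 0.82 (adjusted p = 0.0133), but that call was lost without FeNonAD library 8, which alone held 26.9 CPM. Col11a2, another type XI chain, went the other way, with -0.62 ± 0.20 in MaAAD (adjusted p = 0.0122) and -0.36 ± 0.18 in FeAAD, which did not pass (adjusted p = 0.106). Col24a1, a minor fibrillar gene that averaged 7.02 counts a library, was higher in MaAAD by 1.43 ± 0.51 (adjusted p = 0.0253) and had 0.96 ± 0.48 in FeAAD (adjusted p = 0.0976). It was not among the calls in a fit of MaAAD and MaCon alone.

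The hexagonal network class had the largest rises of all classes. The promoters of its most increased genes, Col8a1 and Col10a1, are shown with that of Col11a1, since all 3 rose from low levels in both AAD groups. Lines give the 150 bases before the start in GRCm38.p6, on the gene's strand, with capitals marking those same motifs or GGGCGG on either strand (Col8a1 at chr16:57754738-57754887, minus strand; Col10a1 at chr10:34389831-34389980, plus strand; Col11a1 at chr3:114030390-114030539, plus strand).
Col8a1: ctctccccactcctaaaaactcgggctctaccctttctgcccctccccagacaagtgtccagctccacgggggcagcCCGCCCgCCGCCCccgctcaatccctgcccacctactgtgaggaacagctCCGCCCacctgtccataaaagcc
Col10a1: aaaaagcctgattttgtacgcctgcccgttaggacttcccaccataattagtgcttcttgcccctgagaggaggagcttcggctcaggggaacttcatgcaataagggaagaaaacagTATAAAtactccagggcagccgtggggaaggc
Col11a1: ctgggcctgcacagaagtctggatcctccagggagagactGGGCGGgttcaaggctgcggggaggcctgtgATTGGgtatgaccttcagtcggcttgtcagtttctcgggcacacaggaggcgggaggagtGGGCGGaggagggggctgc
Col10a1 has TATAAA 32 bases before its start, Col8a1 has GGGCGG on the opposite strand 73, 66 and 23 bases before its start, and Col11a1 has GGGCGG 110 and 19 bases before and CCAAT on the opposite strand 79 bases before. None of the motifs searched stood in all 3.

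Col8a1, a chain of type VIII collagen, which is made by endothelial and smooth muscle cells of vessels, was the only collagen called by edgeR in all 4 comparisons of treated with control aortas when all 6 groups were fitted together, where DESeq2 also called Col5a2 in all 4. In edgeR fits of the compared groups alone, Col1a1, Col5a2 and Col6a3 were also called in all 4. It ranged from 5.11 to 21.9 (median 11.3) CPM in MaCon and from 63.3 to 383 (median 143) in MaAAD. The MaNonAD libraries gave 222, 17.3, 48.3 and 18.5 CPM. In females it ranged from 7.30 to 22.5 (median 12.8) CPM in FeCon, from 15.2 to 233 (median 27.6) in FeNonAD and from 31.5 to 726 (median 123) in FeAAD. All 16 AAD libraries, 2 of 4 MaNonAD and 5 of 8 FeNonAD libraries stood above all 20 controls. Col8a1 was higher by 4.11 ± 0.59 on the log2 scale in MaAAD (adjusted p = 4.27e-07) and by 4.34 ± 0.58 in FeAAD (adjusted p = 5.90e-08). In MaNonAD it was higher by 2.77 ± 0.63 (adjusted p = 0.0202) and in FeNonAD by 1.96 ± 0.54 (adjusted p = 0.0117), and these calls were lost without MaNonAD library 1 and without FeNonAD library 8, the libraries with the highest Col8a1 of their groups.

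Col8a2, its partner chain, ranged from 2.94 to 7.20 (median 5.47) CPM in MaCon, from 5.46 to 43.8 (median 9.76) in MaAAD, from 5.10 to 10.1 (median 6.79) in FeCon and from 1.39 to 80.5 (median 6.72) in FeAAD. In MaNonAD the libraries held 17.0, 3.95, 6.05 and 3.94 CPM, and FeNonAD ranged from 3.86 to 39.2 (median 5.15). The medians of FeCon and FeAAD were nearly alike, and 3 of 7 MaAAD and 4 of 9 FeAAD libraries stood above all controls, so the rise in the mean came from a part of the libraries. The log2 fold change was 1.72 ± 0.55 in MaAAD (adjusted p = 0.0129), a call lost without MaAAD library 1, and 1.95 ± 0.53 in FeAAD (adjusted p = 0.00228).

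Col10a1, the collagen of hypertrophic cartilage, which overlaps Nt5dc1 on the opposite strand, ranged from 0.0654 to 0.601 (median 0.333) CPM in MaCon and from 0.310 to 91.5 (median 2.11) in MaAAD. The MaNonAD libraries gave 22.3, 0.573, 0.920 and 0.468 CPM. The female values ran from 0.0712 to 0.830 (median 0.451) CPM in FeCon, from 0.434 to 21.7 (median 0.650) in FeNonAD and from 0.237 to 257 (median 4.12) in FeAAD. Its spread within AAD was wide: 5 of 7 MaAAD and 5 of 9 FeAAD libraries stood above all controls and the others lay within the control range. Col10a1 was higher by 6.08 ± 1.27 on the log2 scale in MaAAD (adjusted p = 1.66e-04) and by 6.36 ± 1.23 in FeAAD (adjusted p = 4.06e-05), and its 3.37 ± 1.22 in FeNonAD did not pass (adjusted p = 0.0548). In fits of the compared groups alone, Col10a1 did not pass the filter on low counts and was not tested in either AAD comparison.

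**Figure D4:**
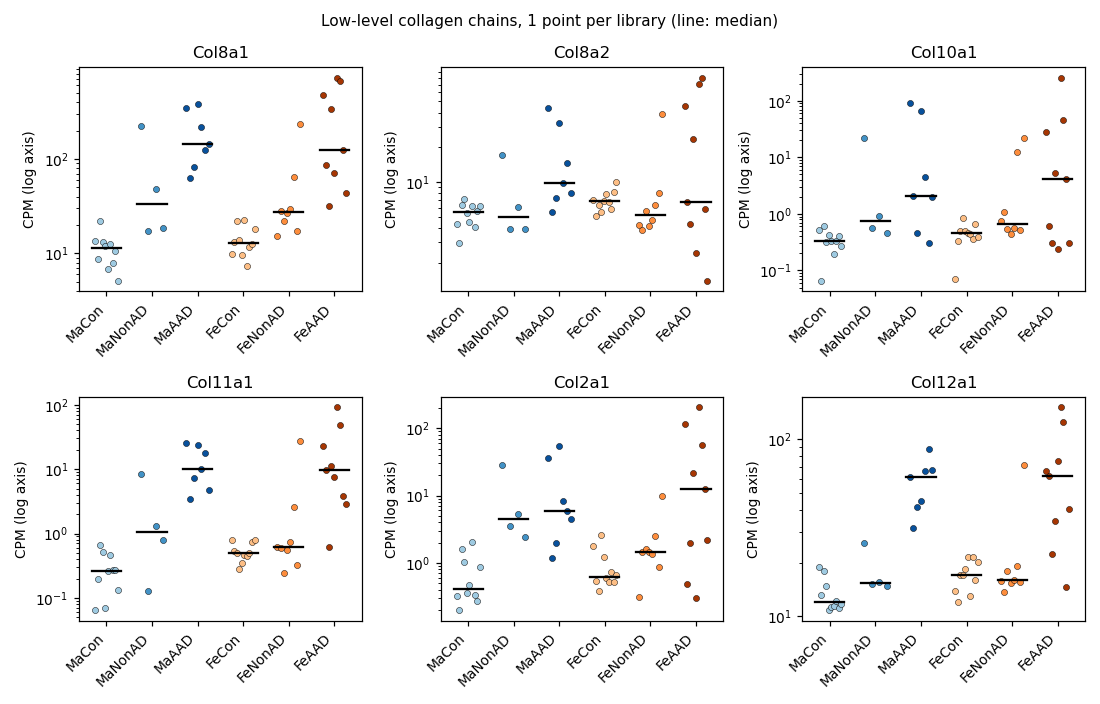
CPM on a log axis (y) of Col8a1, Col8a2, Col10a1, Col11a1, Col2a1 and Col12a1 in each library (points) of the 6 groups (x axis), with lines at the group medians. Most AAD points of Col8a1, Col11a1 and Col12a1 lie above all controls, while Col10a1 and Col8a2 have AAD points both within and far above the control range.

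The rare chains were high together in a part of the aortas. In 8 libraries, MaNonAD library 1, MaAAD libraries 1 and 4, FeNonAD library 8 and FeAAD libraries 1, 4, 6 and 7, all 5 of Col2a1, Col8a1, Col8a2, Col10a1 and Col11a1 stood above every control library, whose highest values were 2.56, 22.5, 10.1, 0.830 and 0.787 CPM. Among the other NonAD libraries, MaNonAD library 3 stood above every control in 4 of the 5 genes, all but Col8a2, FeNonAD library 6 in 3 of the 5, and the rest in 0 to 2. The remaining AAD libraries did so in 1 to 4 of the 5, and the genes parted in some of them. MaAAD library 6 held 17.9 CPM of Col11a1 and 0.310 of Col10a1, and FeAAD library 5 held 7.57 and 0.237. The 8 libraries were chosen from the values themselves, so no test was run on them.

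Markers of cartilage cells moved in part with these genes. Of 9 cartilage markers that are not collagens, 6 were tested, and the same 3, Acan, Sox9 and Comp, rose in MaAAD and in FeAAD. Their summed level was 114 to 194 CPM in MaCon, 176 to 367 in MaNonAD and 231 to 557 in MaAAD, and among females 109 to 184 in FeCon, 151 to 404 in FeNonAD and 174 to 798 in FeAAD. Among the rest of the list, Matn3 and Hapln1 had counts in every library, up to 90 and 78, and were called in neither AAD comparison. Levels were near 0 for others: Matn1 reached at most 2 counts, Ucma 11, Snorc 17 and Cnmd 18 in any library. Of 7 bone markers, 4 were tested, and 1 rose in MaAAD and 0 in FeAAD, where edgeR gave an unadjusted p under 0.05 for 1 and DESeq2 called 0. The part of such cells in the rise of Col2a1, Col10a1 and Col11a1 was not tested.

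Basement membrane genes did not follow the fibrillar ones. Col4a1 and Col4a2, which are transcribed away from each other on chromosome 8 and form the common type IV network, were abundant in every group. Their annotated starts overlap by 22 bases on opposite strands. The paper reports strand-specific libraries, but whether the counting used strand is not given in the sources used here, so some of their reads may not be told apart. Col4a1 ranged from 1516 to 2266 (median 1860.0) CPM in MaCon, from 1309 to 2209.9 (median 1883) in MaAAD, from 1694 to 2754 (median 2134) in FeCon and from 907 to 2408 (median 1824) in FeAAD. In MaNonAD the libraries held 1679, 1617, 1934 and 2072 CPM, and FeNonAD ranged from 1569 to 2118 (median 1868). Its log2 fold change was -0.031 ± 0.13 in MaAAD (adjusted p = 0.876) and -0.20 ± 0.12 in FeAAD (adjusted p = 0.178), and that of Col4a2 was 0.13 ± 0.12 and -0.071 ± 0.11 (adjusted p = 0.428 and 0.644). Col4a2 ranged from 1065 to 1728 (median 1325) CPM in MaCon, from 1449 to 1696 (median 1544) in MaNonAD, from 1019 to 1782 (median 1535) in MaAAD, from 1175 to 1848 (median 1519) in FeCon, from 1315 to 1712 (median 1482) in FeNonAD and from 686 to 1743 (median 1451) in FeAAD. For both genes every group overlapped with the others. Col4a5 and Col4a6, the X-linked pair of chains found in smooth muscle basement membranes, had 0.11 ± 0.20 and -0.39 ± 0.19 in MaAAD and 0.07 ± 0.18 and -0.31 ± 0.17 in FeAAD, with adjusted p of 0.695, 0.0992, 0.782 and 0.147. Col4a5 ranged from 381 to 609 (median 525.6) CPM in MaCon, from 379.6 to 751 (median 557) in MaNonAD, from 283 to 724 (median 574) in MaAAD, from 391 to 670.0 (median 571) in FeCon, from 418 to 884 (median 685) in FeNonAD and from 173 to 749.8 (median 649.8) in FeAAD. FeAAD library 5, which had the highest summed macrophage markers, was the lowest FeAAD library for all 6 type IV genes.

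Within type VI collagen, the chains parted. Col6a3, the largest chain, ranged from 368 to 637 (median 471) CPM in MaCon and from 367 to 1049.8 (median 813) in MaAAD, with 724, 616, 650.5 and 765 in the MaNonAD libraries. In females it ranged from 378 to 511 (median 455) CPM in FeCon, from 679.7 to 963 (median 747) in FeNonAD and from 525 to 1209 (median 785) in FeAAD. All FeNonAD and FeAAD libraries stood above all FeCon libraries, and in males 6 of 7 MaAAD libraries, all but library 1, and 3 of 4 MaNonAD libraries, all but library 2, stood above all MaCon libraries. Col6a3 was higher by 0.72 ± 0.14 in MaAAD (adjusted p = 7.93e-05), 0.83 ± 0.13 in FeAAD (adjusted p = 2.66e-06) and 0.78 ± 0.14 in FeNonAD (adjusted p = 1.58e-04), and its 0.55 ± 0.17 in MaNonAD did not pass (adjusted p = 0.13), although it passed in a fit of MaNonAD and MaCon alone. Col6a1 and Col6a2, the shorter chains of the same trimer, had -0.13 ± 0.12 and -0.20 ± 0.13 in MaAAD and -0.056 ± 0.11 and -0.081 ± 0.12 in FeAAD, and none of these passed. Col6a1 ranged from 859 to 1231 (median 1101) CPM in MaCon, from 974 to 1313 (median 1180.4) in MaNonAD, from 747 to 1285 (median 975) in MaAAD, from 871 to 1358 (median 1007) in FeCon, from 955 to 1234 (median 1167) in FeNonAD and from 595 to 1307 (median 1059) in FeAAD. Col6a2 ranged from 859.7 to 1378 (median 1238) CPM in MaCon, from 966 to 1445 (median 1323) in MaNonAD, from 730.5 to 1435 (median 981) in MaAAD, from 869 to 1462 (median 1051) in FeCon, from 1009 to 1397 (median 1183) in FeNonAD and from 568.4 to 1389 (median 1136) in FeAAD. For both chains the treated and control ranges overlapped. Col6a5 and Col6a6 were low, at means of 0.517 and 17.1 CPM, and passed in neither sex.

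The FACIT genes were divided, with rises in Col12a1 and Col16a1 and falls in Col19a1 and Col22a1. Col12a1, a fibril-surface collagen of tissues under tension, ranged from 10.8 to 19.1 (median 12.0) CPM in MaCon and from 31.8 to 87.8 (median 61.4) in MaAAD, with 25.9, 15.2, 15.6 and 14.8 in the MaNonAD libraries. Female values ran from 12.1 to 21.8 (median 17.1) CPM in FeCon, from 13.7 to 72.0 (median 16.0) in FeNonAD and from 14.6 to 152 (median 62.0) in FeAAD. All 7 MaAAD and 8 of 9 FeAAD libraries, but 1 of 4 MaNonAD and 1 of 8 FeNonAD libraries, stood above all 20 controls. It was higher by 2.10 ± 0.31 on the log2 scale in MaAAD (adjusted p = 9.57e-07) and 1.94 ± 0.30 in FeAAD (adjusted p = 9.97e-07). Col16a1 ranged from 65.8 to 106 (median 83.3) CPM in MaCon, from 87.2 to 176 (median 143) in MaAAD, from 65.7 to 122 (median 90.2) in FeCon and from 88.0 to 254 (median 130.5) in FeAAD, and was higher by 0.77 ± 0.17 and 0.66 ± 0.16 (adjusted p = 3.48e-04 and 8.19e-04). In MaNonAD the libraries held 138, 94.7, 94.6 and 82.7 CPM of Col16a1, and FeNonAD ranged from 80.3 to 169 (median 101). Col14a1, which binds fibrils as Col12a1 does and was the most abundant FACIT at 74.6 CPM per kb, ranged from 409 to 539 (median 470.1) CPM in MaCon, from 336 to 524 (median 434) in MaNonAD, from 334 to 606 (median 483) in MaAAD, from 378 to 601 (median 453) in FeCon, from 397 to 636 (median 518) in FeNonAD and from 126 to 692 (median 514) in FeAAD. Its log2 fold changes of 0.011 ± 0.18 in MaAAD and 0.00065 ± 0.17 in FeAAD did not pass (adjusted p = 0.973 and 0.998).

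Col9a1 and Col9a2, which coat type II fibrils in cartilage, were barely expressed, with means over all libraries of 11.6 and 5.04 counts. Col9a1 ranged from 0.0668 to 0.914 (median 0.396) CPM in MaCon, from 0.382 to 1.20 (median 0.730) in MaNonAD, from 0.117 to 2.40 (median 0.698) in MaAAD, from 0.133 to 0.569 (median 0.340) in FeCon, from 0.122 to 1.47 (median 0.352) in FeNonAD and from 0.237 to 4.32 (median 1.06) in FeAAD, so all groups overlapped. Col9a1 was higher in FeAAD by 2.00 ± 0.47 (adjusted p = 5.38e-04), and its 1.19 ± 0.49 in MaAAD did not pass (adjusted p = 0.0545). Col9a2 was higher by 1.10 ± 0.45 in MaAAD (adjusted p = 0.0492), a call absent without MaAAD library 1, with DESeq2 and with no filter on low counts, and by 1.51 ± 0.39 in FeAAD (adjusted p = 0.00166). DESeq2 called Col9a1 higher in MaAAD. In fits of the compared groups alone neither gene was among the calls.

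Col19a1, a minor collagen of muscle and of basement membrane zones, was the most reduced of the collagens in MaAAD. It ranged from 6.31 to 9.75 (median 7.80) CPM in MaCon and from 1.15 to 7.38 (median 2.97) in MaAAD, with 3.41, 5.41, 4.01 and 6.41 in the MaNonAD libraries. In females it ranged from 3.74 to 8.55 (median 4.56) CPM in FeCon, from 4.69 to 9.30 (median 5.91) in FeNonAD and from 0.769 to 4.83 (median 2.81) in FeAAD. Medians of both treated male groups lay below that of MaCon, whereas the FeNonAD median stood above that of FeCon, and the AAD and control ranges overlapped in each sex. The log2 fold change was -1.25 ± 0.27 in MaAAD (adjusted p = 3.35e-04), -1.02 ± 0.25 in FeAAD (adjusted p = 0.0011) and -1.29 ± 0.27 in FeAAD versus FeNonAD (adjusted p = 4.74e-04). The male minus female response to BAPN without a lesion was -0.96 ± 0.41 (adjusted p = 0.313) and did not pass. Col22a1, a collagen of muscle–tendon junctions that averaged 17.5 counts, ranged from 0.735 to 1.97 (median 1.31) CPM in MaCon, from 0.526 to 1.02 (median 0.734) in MaNonAD, from 0 to 0.873 (median 0.615) in MaAAD, from 1.01 to 2.35 (median 1.67) in FeCon, from 0.792 to 2.11 (median 1.41) in FeNonAD and from 0.437 to 1.53 (median 0.672) in FeAAD. It fell by 1.18 in MaAAD (adjusted p = 0.00249) and by 1.08 in FeAAD (adjusted p = 0.00144) on the log2 scale. Col20a1 had -0.43 ± 0.14 in FeAAD (adjusted p = 0.0114) and -0.21 ± 0.15 in MaAAD, which did not pass (adjusted p = 0.305). It ranged from 8.27 to 22.0 (median 14.2) CPM in MaCon, from 12.3 to 15.8 (median 14.4) in MaNonAD, from 7.17 to 14.4 (median 12.9) in MaAAD, from 11.7 to 20.4 (median 17.0) in FeCon, from 13.0 to 17.7 (median 14.6) in FeNonAD and from 6.09 to 14.5 (median 13.5) in FeAAD.

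The multiplexins, Col15a1 and Col18a1, of which the latter is the precursor of the angiogenesis inhibitor endostatin, passed in neither AAD comparison in the fit of all groups. Col18a1 ranged from 2324 to 4015 (median 3159) CPM in MaCon, from 1302 to 3466 (median 2471) in MaAAD, from 2318 to 4125 (median 3118) in FeCon and from 955 to 3341 (median 2677) in FeAAD, with log2 fold changes of -0.33 ± 0.18 and -0.32 ± 0.16 (adjusted p = 0.139 and 0.106). In MaNonAD the libraries held 2912, 3569, 3570.5 and 3589.6 CPM of Col18a1, and FeNonAD ranged from 2618 to 3984 (median 3089). Slc19a1 overlaps it on the other strand, so their reads may not be fully apart, which holds for Col10a1 and Nt5dc1 and for Col9a3 and Tcfl5 too. Col15a1 ranged from 735 to 1258 (median 898) CPM in MaCon, from 1139 to 1555 (median 1209) in MaNonAD, from 435 to 1511 (median 1149.7) in MaAAD, from 664 to 1302 (median 839.7) in FeCon, from 1123 to 1707 (median 1385) in FeNonAD and from 439 to 1603 (median 1135) in FeAAD. It was higher in FeNonAD by 0.66 ± 0.17 (adjusted p = 0.00807) and had 0.40 ± 0.17 in FeAAD, which did not pass (adjusted p = 0.0518). Col15a1 did pass in FeAAD with DESeq2, with its size factors in edgeR, and without FeAAD library 5 or 6, and in MaAAD versus MaCon without MaAAD library 1.

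Among the transmembrane collagens, Col23a1 had -0.57 ± 0.17 in MaAAD (adjusted p = 0.00751) and -0.70 ± 0.16 in FeAAD (adjusted p = 3.39e-04), and Col13a1 passed in neither. Col23a1 ranged from 13.1 to 20.2 (median 14.5) CPM in MaCon, from 9.33 to 14.5 (median 10.3) in MaNonAD, from 6.59 to 14.8 (median 10.2) in MaAAD, from 9.75 to 20.6 (median 15.8) in FeCon, from 10.4 to 15.5 (median 13.3) in FeNonAD and from 4.47 to 13.8 (median 10.0) in FeAAD. Col13a1 ranged from 0.133 to 0.996 (median 0.466) CPM in MaCon, from 0.267 to 0.591 (median 0.464) in MaNonAD, from 0.248 to 1.02 (median 0.524) in MaAAD, from 0.0692 to 0.787 (median 0.364) in FeCon, from 0.245 to 0.914 (median 0.417) in FeNonAD and from 0.0619 to 1.20 (median 0.485) in FeAAD. Col7a1, the anchoring fibril collagen of skin, ranged from 4.13 to 6.02 (median 5.02) CPM in MaCon, from 4.74 to 6.35 (median 4.88) in MaNonAD, from 3.54 to 6.75 (median 4.94) in MaAAD, from 3.52 to 6.02 (median 4.596) in FeCon, from 3.84 to 6.29 (median 4.55) in FeNonAD and from 3.22 to 7.67 (median 4.31) in FeAAD, and passed in neither. The ranges of these 3 genes overlapped between treated and control groups. Col28a1, a collagen found around Schwann cells, was higher in FeAAD by 0.88 ± 0.27 (adjusted p = 0.00688), a call lost without FeAAD library 6, and had 0.52 ± 0.28 in MaAAD (adjusted p = 0.154). It ranged from 1.28 to 2.62 (median 1.64) CPM in MaCon, from 1.72 to 2.10 (median 1.86) in MaNonAD, from 0.989 to 5.24 (median 1.98) in MaAAD, from 0.633 to 2.78 (median 1.47) in FeCon, from 1.05 to 2.23 (median 1.63) in FeNonAD and from 1.15 to 6.77 (median 2.19) in FeAAD.

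In treated mice without a detectable lesion, part of the fibrillar rise was called in females. The median log2 fold change of the 11 fibrillar genes was 0.39 in MaNonAD and 0.51 in FeNonAD, each against its controls. In FeNonAD versus FeCon, 9 of 40 collagens were higher, against 6.87% of all genes, and 0 were lower, against 7.66%, where DESeq2 also gave 0 lower. The 9 were Col1a1, Col1a2, Col3a1, Col5a2, Col27a1, Col11a1, Col8a1, Col6a3 and Col15a1, and 2 of them, Col8a1 and Col11a1, were DEGs (1.67% of all genes were higher DEGs and 1.08% lower DEGs). Without FeNonAD library 8, 6 remained: Col15a1, Col1a1, Col27a1, Col3a1, Col5a2 and Col6a3. DESeq2 called 11 higher, adding Col10a1 and Col5a1. In MaNonAD versus MaCon, with 4 MaNonAD libraries, 1 collagen, Col8a1, was higher, against 0.443% of all genes, and also a DEG (0.381% of all genes). None was lower by edgeR or DESeq2 in the fit of all groups (0.18% of all genes were lower and 0.097% were lower DEGs in edgeR). Of the 40, 12 had an unadjusted p under 0.05 in that comparison, DESeq2 called 3 higher (Col2a1, Col5a2 and Col8a1), and without MaNonAD library 1 edgeR called 0. A fit of MaNonAD and MaCon alone tested 35 collagens and called 7, with Col11a1, Col1a1, Col2a1, Col5a2, Col6a3 and Col8a1 higher and Col19a1 lower. No collagen passed the test of a sex difference in the NonAD response (0.416% of all genes did) or in the AAD response (1.34% of all genes). In edgeR, 2 and 1 collagens had an unadjusted p under 0.05 in these tests, and DESeq2 called 0 in both.

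The summed macrophage and smooth muscle markers of NonAD aortas lay between those of control and AAD aortas as group means in both sexes. Summed macrophage markers were 325 to 606 CPM in MaNonAD and 266 to 657 in FeNonAD, with 0 of 7 genes higher in MaNonAD by edgeR, where 3 had an unadjusted p under 0.05 and DESeq2 called 0, and 1 of 7 higher in FeNonAD. Adgre1, a macrophage marker, stood above all 20 controls in MaNonAD libraries 1 and 3 and FeNonAD libraries 6 and 8. In these NonAD libraries most of the rare chains stood above every control. Comp, a cartilage marker, did so in MaNonAD libraries 1 and 3 and FeNonAD library 8. In AAD, Adgre1 stood above all controls in 7 of 7 MaAAD and 8 of 9 FeAAD libraries. Among them were FeAAD libraries 2, 3 and 5, with only 2, 1 and 2 of the 5 rare chains above every control. Summed smooth muscle markers were 20854 to 37800.2 CPM in MaNonAD and 25729 to 44689 in FeNonAD, with 2 of 8 genes lower in FeNonAD and 0 in MaNonAD, where 4 had an unadjusted p under 0.05 and DESeq2 called 1. Acan was the 1 cartilage marker that was higher in each NonAD group. Between FeAAD and FeNonAD, all 7 macrophage markers and 3 of 6 cartilage markers were higher and 6 of 8 smooth muscle markers lower. The part of these shifts in the collagen differences was not tested.

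Between aortas with a lesion and treated aortas without one, the main edgeR fit called collagens in females and none in males, whose groups were smaller. The median log2 fold change of the 11 fibrillar genes was 0.53 in females and 0.54 in males. That of the 3 hexagonal network genes was 2.38 in females and 1.34 in males. A sex difference in this contrast was not tested. In FeAAD versus FeNonAD, 10 of 40 collagens were higher, against 13.2% of all genes, and 2 were lower, Col19a1 and Col22a1, against 5%, which is the background share. The Col22a1 call was lost without FeAAD library 5, 6 or 9 and in a fit of FeAAD and FeNonAD alone. Higher DEGs numbered 7 (6.79% of all genes) and lower DEGs 1 (0.249% of all genes). The largest of these differences were in Col2a1, with a log2 fold change of 4.25 ± 0.89 (adjusted p = 6.16e-04), and Col10a1, with 2.99 ± 1.06 (adjusted p = 0.0424), and the abundant Col1a1 and Col3a1 were higher by 0.64 ± 0.17 and 0.53 ± 0.16 (adjusted p = 0.00695 and 0.0191). Col8a1 was higher by 2.38 ± 0.57 (adjusted p = 0.00252), and Col12a1 was a higher DEG too (adjusted p = 6.31e-04). A fit of FeAAD and FeNonAD alone gave 4 higher calls, Col12a1, Col2a1, Col5a2 and Col8a1, so those of Col1a1, Col3a1, Col10a1, Col11a1, Col9a1 and Col9a2 were absent there. The Col10a1 and Col9a1 calls were also lost with no filter on low counts. Without FeAAD library 6 the higher calls were 6, with Col10a1, Col11a1, Col9a1 and Col9a2 lost, and without FeNonAD library 8 they were 15. In MaAAD versus MaNonAD, edgeR called 0 of 40 (0.409% of all genes were called in either direction), with 7 at an unadjusted p under 0.05, all higher in MaAAD: Col11a1, Col12a1, Col16a1, Col1a1, Col1a2, Col3a1 and Col5a2. DESeq2 called 3, Col12a1, Col3a1 and Col5a2, as did edgeR without MaNonAD library 1 or without MaAAD library 1.

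Chains of the same collagen type, and Col3a1 with Col1a1, were also compared within each library, since their ratio does not depend on the scaling between libraries. For 6 pairs, the mean log2 ratio of counts was compared in 6 comparisons within a sex by two-sided exact permutation tests, and p-values were adjusted over the 36 tests. The ratio of Col6a3 to Col6a1 was higher in all 4 treated groups than in controls: by 0.483 in MaNonAD, 0.816 in MaAAD and, among females, 0.692 in FeNonAD and 0.854 in FeAAD (exact permutation tests, adjusted p = 0.0103, 0.00106, 5.48e-04 and 3.90e-04). All 8 FeNonAD libraries lay above all FeCon libraries, and the difference of FeAAD from FeNonAD did not pass, at 0.162 (adjusted p = 0.151). The ratio of Col8a1 to Col8a2 was likewise higher in all 4, by 1.74, 2.59, 1.42 and 2.86 in the same order (adjusted p = 0.00599, 6.50e-04, 0.00201 and 3.90e-04), and higher in FeAAD than in FeNonAD by 1.44 (adjusted p = 0.00267). In MaAAD versus MaNonAD the differences in Col6a3 to Col6a1 and Col8a1 to Col8a2, 0.333 and 0.843, did not pass (exact permutation tests, adjusted p = 0.135 and 0.113).

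In the fibril chains, Col1a1 gained on Col1a2 and Col5a2 gained on Col5a1. The log2 ratio of Col1a1 to Col1a2 was -0.727 ± 0.144 in MaCon, -0.267 ± 0.248 in MaAAD, -0.821 ± 0.150 in FeCon and -0.312 ± 0.261 in FeAAD. The difference was 0.460 in males and 0.510 in females (exact permutation tests, adjusted p = 0.00337 and 6.50e-04), and, against the same controls, 0.248 in MaNonAD and 0.165 in FeNonAD (adjusted p = 0.0274 and 0.0785). The ratio of Col5a1 to Col5a2 differed by -0.417 in MaAAD, where all 7 libraries lay below all MaCon libraries, and by -0.532 in FeAAD (exact permutation tests, adjusted p = 6.50e-04 and 0.00146). MaAAD also lay below MaNonAD, with a difference of -0.277 (adjusted p = 0.0136; with 7 against 4 libraries the smallest unadjusted p the permutation test can give is 0.00606), and FeAAD lay below FeNonAD, with a difference of -0.352 (adjusted p = 0.0113). In MaNonAD versus MaCon the difference was -0.140 (adjusted p = 0.0274), and in FeNonAD versus FeCon it was -0.180 and did not pass (adjusted p = 0.101). The MaNonAD difference of Col1a1 to Col1a2 did not pass without MaNonAD library 1, 2 or 3 (exact permutation tests, adjusted p = 0.0599, 0.0801 and 0.0876), nor that of Col5a1 to Col5a2 without library 1, 3 or 4 (adjusted p = 0.0839, 0.0719 and 0.0657).

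The ratio of Col4a1 to Col4a2, genes whose totals did not pass in any AAD comparison, was lower in 3 of the 4 treated groups, with differences of -0.247 in MaNonAD, -0.177 in FeNonAD and -0.163 in MaAAD (exact permutation tests, adjusted p = 0.0189, 0.00975 and 0.0189). In FeAAD the difference of -0.128 did not pass (adjusted p = 0.0639), and the MaNonAD difference did not pass without MaNonAD library 1 (adjusted p = 0.053) or library 2 (adjusted p = 0.0629). The ratio of Col3a1 to Col1a1, the chains of different fibril types, passed in none of the 6 comparisons, the nearest being -0.297 in MaNonAD (exact permutation test, adjusted p = 0.0589). In MaAAD and FeAAD it differed from controls by -0.113 ± 0.106 and -0.153 ± 0.0862 (SE).

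**Figure D5:**
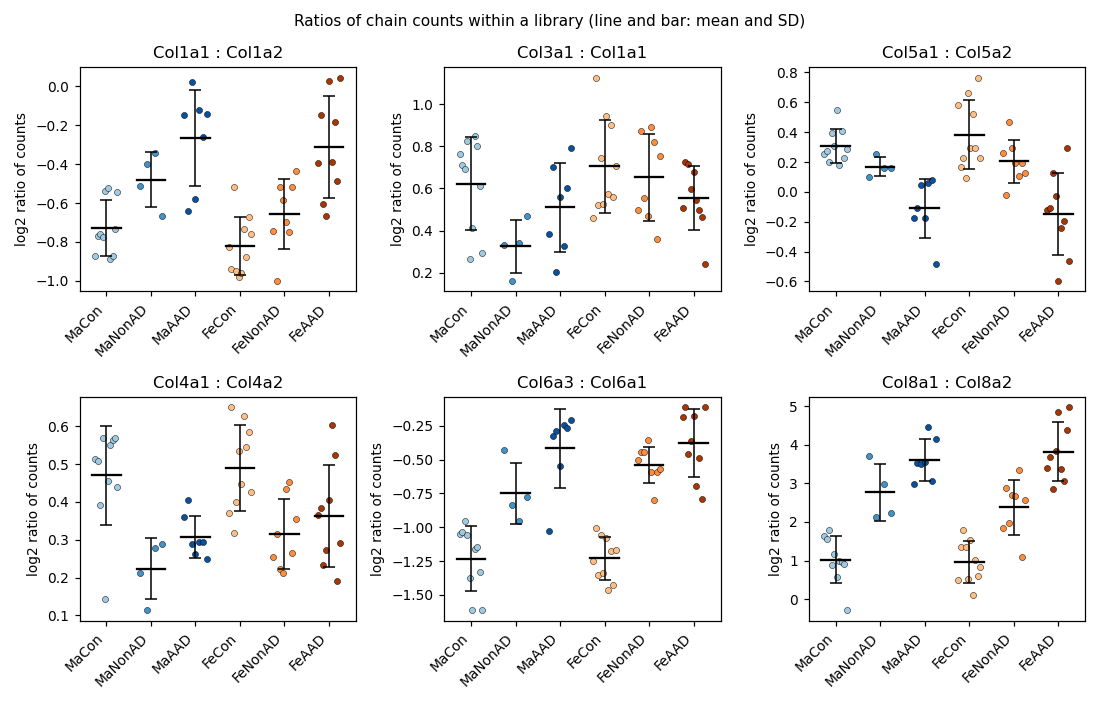
Log2 ratio of the counts of 2 collagen chains (y axis) in each library (points) of the 6 groups (x axis), with the mean and SD of each group, for 6 pairs. Col6a3 to Col6a1 and Col8a1 to Col8a2 stand higher in the 4 treated groups than in controls, Col5a1 to Col5a2 stands lower in AAD, and Col3a1 to Col1a1 overlaps across groups.

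Genes that make and modify collagen were read from a list of 35 chaperones, hydroxylases, proteases and cross-linking enzymes, of which 34 were in the table and 33 were tested. In MaAAD versus MaCon, 15 were higher and 2 lower, against 18.9% and 16.1% of all genes, and in FeAAD versus FeCon, 19 were higher and 2 lower, against 23.8% and 20.6%. In FeAAD versus FeNonAD 15 were higher and 1 lower, against 13.2% and 5%. In FeNonAD versus FeCon, 4 were higher and 1 lower, against 6.87% and 7.66%, which is near the background. In MaNonAD versus MaCon and in MaAAD versus MaNonAD edgeR called 0, with 5 and 12 at an unadjusted p under 0.05, and DESeq2 called 0 and 1. P4ha3, a subunit of prolyl 4-hydroxylase, was higher by 4.38 ± 0.56 in MaAAD and 4.34 ± 0.54 in FeAAD (adjusted p = 5.73e-08 and 1.76e-08). Lox, a lysyl oxidase that BAPN blocks, was higher by 1.08 ± 0.26 and 1.21 ± 0.25 (adjusted p = 9.91e-04 and 1.01e-04), and Tll1, a procollagen protease, by 2.05 ± 0.39 and 2.07 ± 0.37 (adjusted p = 4.23e-05 and 1.41e-05). Serpinh1, the collagen chaperone, was higher in FeAAD by 0.79 ± 0.16 (adjusted p = 5.75e-05), and its 0.17 ± 0.17 in MaAAD did not pass (adjusted p = 0.443). Pcolce2, an enhancer of procollagen C-terminal cleavage, and P4ha2 were the lower ones in both sexes, Pcolce2 with -0.71 and -0.76 and P4ha2 with -0.41 and -0.35.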

How the data were processed

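RNA of the thoracic aorta was measured in 48 mice of 6 groups, taken from the titles of the samples. The authors deposited expected counts per gene, estimated by RSEM and not scaled to library size, with 1 column per mouse. The submitters' processing notes name GRCm39, Bowtie2 and RSEM 1.3.1. The paper reports strand-specific libraries, and whether counting used strand is not given in the sources used here. Of the values 4.99% were not whole, and all were rounded to whole counts, although the design had assumed raw counts. Errors are the spread between mice.

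Members and lists were chosen with earlier results of these data known. For differential expression, edgeR 4.0.16 (R 4.3.3; filterByExpr, TMM with factors of 0.874 to 1.08, robust quasi-likelihood test) was run on all 14431 genes that passed the filter, with a mean for each of the 6 groups. P-values were adjusted by Benjamini-Hochberg over all genes tested. Errors of fold changes were computed back from each gene's F statistic and are approximate. CPM values use library sizes scaled by the TMM factors. The test was tried before use on simulated data with the same dispersion for all genes. Only genes with ample counts were changed there, so that trial does not cover the rare chains. Chain ratios were compared by exact permutation tests with scipy 1.17.1, and tables and figures used Python 3.11.15, numpy 2.4.6, pandas 2.3.3 and matplotlib 3.10.9.

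Given in full were the 3 members of each class with the highest mean CPM per kb and every member that was a DEG in a comparison within a sex and averaged at least 10 counts, except the untested Col17a1 and Col26a1. Col5a1, Col5a3, Col9a2, Col11a2, Col24a1, Col27a1, Col4a6 and the genes of the biosynthesis list were named after their values were seen. Lengths and chromosomes are from GENCODE M21, matched by symbol, and promoters from RefSeq on GRCm38.p6, since no genome of the files' build was used here. Alternatives were DESeq2 1.42.0, edgeR with its size factors, all genes kept without a filter, calls by adjusted p alone, the replicate number as a block, the compared groups alone, and leaving out single libraries. Those without MaAAD library 1 or FeAAD library 5, 6 or 9 were added after seeing the data.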

Additional observations from a re-analysis of the deposited data

Results flagged for a closer look

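Of 228 checks of a group's highest or lowest library in a collagen value, 31 stood apart from the rest of the group. The measure was Dixon's gap divided by the range, set against its critical value. For independent normal values chance gives about 1 in 20. Skewed CPM values and genes of the same library do not meet that condition, so the number is a description. Of the 31, 15 were in 2 libraries. MaNonAD library 1 stood apart from the other 3 MaNonAD libraries in 8 genes, with 28.2 CPM of Col2a1, 222 of Col8a1, 17.0 of Col8a2, 22.3 of Col10a1, 8.32 of Col11a1, 25.9 of Col12a1 and 6.35 of Col7a1, all the highest of the group, and 2912 of Col18a1, the lowest. FeNonAD library 8 was the highest of its group in 7 genes, with 10.0 CPM of Col2a1, 11459.9 of Col3a1, 233 of Col8a1, 39.2 of Col8a2, 26.9 of Col11a1, 72.0 of Col12a1 and 169 of Col16a1.

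Among aortas with lesions, FeAAD library 6 had 257 CPM of Col10a1, the highest of all libraries, FeAAD library 5 was lowest in Col4a2 at 686 CPM and in Col20a1 at 6.09 CPM, MaAAD library 7 was lowest in Col20a1 at 7.17 CPM, and MaAAD library 1 had the lowest log2 ratio of Col6a3 to Col6a1 of its group, -1.02. Among male controls, MaCon library 2 was lowest in Col6a1 and Col6a2, at 859 and 859.7 CPM, library 3 was highest in Col6a3 at 637, Col8a1 at 21.9 and Col15a1 at 1258 CPM, library 5 had a log2 ratio of Col4a1 to Col4a2 of 0.142, library 6 had 0.266 CPM of Col26a1 and library 10 had 20.2 CPM of Col23a1. Among female controls, FeCon library 4 was highest in Col5a2 at 823 CPM, library 7 had 0.149 CPM of Col26a1, and library 9 gave 2.93% of its counts to collagens, the most of its group.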

How the results depend on the processing

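No result changed direction. Against the 1 collagen DEG of MaNonAD versus MaCon, DESeq2 gave 2, the replicate block 0, the compared groups alone 3 and leaving out single libraries 0 to 2. For FeNonAD versus FeCon, with 2, adjusted p alone gave 9, the replicate block 0, the compared groups alone 1 and leaving out single libraries 0 to 2. FeAAD versus FeCon had 13, and 22 by adjusted p alone. MaAAD versus MaNonAD had 0, and 1 with DESeq2, 1 with its size factors in edgeR and 0 to 1 without single libraries. FeAAD versus FeNonAD had 8, with 4 in the compared groups alone and 4 to 10 without single libraries. MaCon versus FeCon had 0, and 1 by adjusted p alone. The MaNonAD difference in the ratio of Col4a1 to Col4a2 was -0.265 by medians (exact permutation test, adjusted p = 0.124), and without single libraries -0.269 to -0.210, with 0.202 to 0.309 for Col1a1 to Col1a2 and -0.168 to -0.117 for Col5a1 to Col5a2. The cause of these changes was not tested. The sample labels give no pairing beyond the replicate number. Deviations of same-numbered libraries had mean correlations of -0.066 to 0.069, and single pairs ran from -0.53 to 0.43. These correlations cannot show whether such libraries shared a cage or a batch, so the replicate block was kept as an alternative. With it, edgeR lost the Col8a1 calls of both NonAD comparisons with controls, that of Col11a1 in FeNonAD and those of Col10a1 and Col22a1 in FeAAD versus FeNonAD. Of 53 calls of named genes, 41 held in every setting in which the gene passed the filter on low counts.

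With 4 MaNonAD libraries, precision in male NonAD comparisons is the lowest. Genes averaging under 20 counts a library, such as Col9a1, Col9a2, Col22a1 and Col24a1, have fold changes that rest on few reads.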
